A study of Caenorhabditis elegans with 8 samples.

Results

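Glutathione S-transferase genes of Caenorhabditis elegans were followed as the 38 transcripts, among 14396 listed in any of the 6 deposited count tables, whose symbol starts with gst-. RNA of whole L4 larvae (the last larval stage) of the Bristol background, grown at 22 °C, was sequenced in 16 libraries. Wild type worms were compared with worms labelled damt-1, after a gene implicated in adenine methylation of worm DNA. Each genotype was either left untreated or raised on 1.92 µM antimycin A, which blocks complex III of the mitochondrial respiratory chain. Treated worms carry the labels P0, F1 or F2, so that there were 8 groups with 2 replicate libraries each. Each genotype has 1 untreated group, and its 2 libraries serve as the control of all 3 treated groups of that genotype, so the 3 comparisons share them. The sources differ on whether exposure started with eggs or with L1 larvae, and exposure of the parents of F1 and F2 worms is not stated in the labels. The labels give neither the damt-1 allele nor the number of worms per library, and nothing says that replicate libraries came from separate cultures, so p-values measure only the spread between libraries, which may be technical.

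Glutathione S-transferases join the tripeptide glutathione to reactive electrophiles, among them products of lipid peroxidation, and so make them soluble and ready for export. Nematodes carry a large family, much of it in tandem arrays, and several members are induced through the transcription factor SKN-1, the worm relative of Nrf2, when cells meet oxidants or electrophiles. Antimycin A makes complex III leak superoxide, and gst-4 is the member most used as a fluorescent reporter of such stress in worms.

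The libraries held 3541390 to 4365451 counts each. Of the 12592 transcripts that were abundant enough to test, 37 were gst- transcripts. Counts of the damt-1 transcript lay between 19.6 and 35.3 CPM (counts scaled to a common library size) in wild type libraries and from 16 to 23.9 CPM in damt-1 libraries. The untreated groups overlapped there, with 19.9 and 19.6 CPM in wild type and 21.9 and 17.0 CPM in damt-1, so the transcript count does not check the genotype label, and each statement on damt-1 worms rests on that label. Among the marker lists, 7 listed germ line genes summed to between 833 and 856 CPM in untreated wild type, between 1131 and 1350 CPM in treated wild type, between 724 and 728 CPM in untreated damt-1 and between 531 and 593 CPM in treated damt-1. The 6 furrow collagens, made by the hypodermis in step with the larval moult, summed to between 362 and 366 CPM in untreated wild type and to between 613 and 1039 CPM after treatment, against between 1601 and 1662 CPM in untreated damt-1 and between 1361 and 1483 CPM in treated damt-1. The 9 listed intestinal genes stayed between 2991 and 3517 CPM in all 16 libraries, and no listed gene of these 3 lists was at 0 in a whole group. The germ line and furrow collagen shifts lay between the same groups that are compared below, and their part in the gst- differences was not tested. In whole worms fewer cells of a type and less RNA per cell cannot be told apart.

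All gst- transcripts together made up between 0.249% and 0.274% of a library's counts. Their summed level was between 2493 and 2572 CPM in untreated wild type and between 2485 and 2594 CPM in treated wild type, and it was between 2472 and 2511 CPM in untreated damt-1 and between 2648 and 2776 CPM in treated damt-1. The treated and untreated sums overlapped in wild type and did not overlap in damt-1. Per kilobase of transcript, gst-1 was the most abundant member with 306 CPM per kilobase over all libraries, followed by gst-13 with 291 CPM per kilobase and gst-7 with 274 CPM per kilobase. At the other end stood gst-2 with 1.38 CPM per kilobase. Of the 37 tested members, 10 held more than 0.5 counts per nucleotide of transcript, and the largest treated against untreated log2 difference among them was 0.34. The 13 members with 0.1 to 0.5 counts per nucleotide reached 7.04 in log2 and the 14 with 0.1 or fewer reached 5.43. Over all transcripts the 99th percentile of this density was 1.35 counts per nucleotide and the highest 3.31, and the densest member had 1.201. Whether the narrow upper end of the density limits the differences of dense transcripts was not tested.

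**Figure D1:**
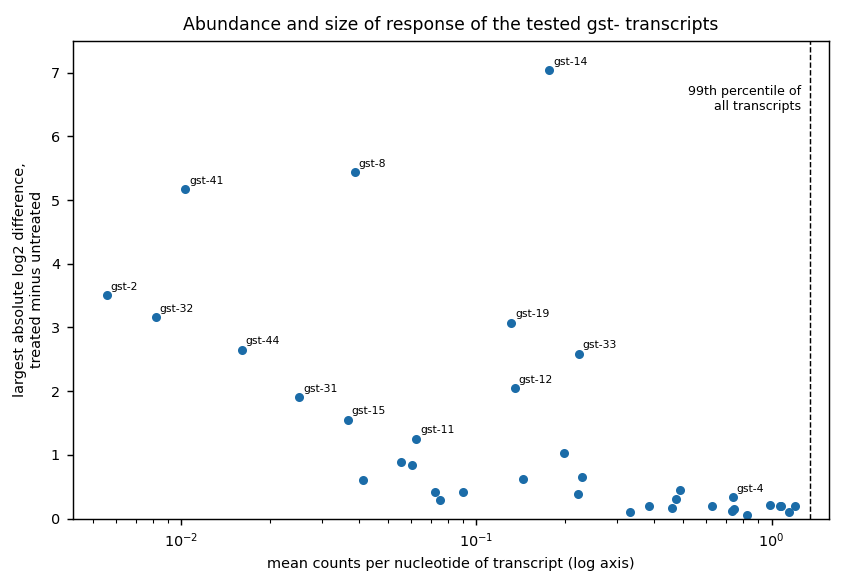
Each point is a tested gst- transcript, with its mean counts per nucleotide over all libraries on a log axis and its largest absolute log2 difference between a treated group and its untreated group. The dashed line marks the 99th percentile of all transcripts, 1.35 counts per nucleotide, and no member above 0.5 counts per nucleotide exceeds 0.34 in log2.

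The members lie mostly in arrays. Runs without another protein-coding gene, or with very few, between neighbours held gst-20, gst-24, gst-15, gst-14, gst-12, gst-16 and gst-19 on chromosome II. A second run on that chromosome held gst-26, gst-27, gst-28, gst-29, gst-39, gst-31, gst-32, gst-34 and gst-35, and another held gst-6, gst-7, gst-8 and gst-9. Chromosome IV held gst-3, gst-2 and gst-4, and the remaining 15 members stood alone. Neighbours in such arrays can be near copies. How reads that match several of them were counted was not examined here, so values of single array members are uncertain to that extent.

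In wild type, antimycin A changed 8 of 36 tested members in P0 (6 higher, 2 lower), 22 of 37 in F1 (12 higher, 10 lower) and 19 of 37 in F2 (11 higher, 8 lower). The share of all transcripts called in these comparisons was 21.1%, 46.9% and 46.9%, against 22.2%, 59.5% and 51.4% of the members. In damt-1 worms 6 of 37 members were called in each of P0 (5 higher, 1 lower), F1 (6 higher) and F2 (6 higher), beside 14.1%, 13.2% and 13.7% of all transcripts. The median member moved by between -0.09 and 0.08 in log2 in these 6 comparisons and the median transcript by between -0.01 and 0.03. A call here is an adjusted p under 0.05 over all transcripts in edgeR's quasi-likelihood test. The scaling bears on small differences: with low-density scaling, in which only transcripts of less than 0.2 counts per nucleotide set the library factors, the median of all transcripts moved by -0.14 in log2 in wild type F1 and by -0.12 in wild type F2 against untreated. The split in wild type then became 5 higher and 3 lower in P0, 11 higher and 15 lower in F1, and 10 higher and 12 lower in F2. Shares of all transcripts called under that scaling are not given here or below, so such splits cannot be read as particular to the members.

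**Figure D2:**
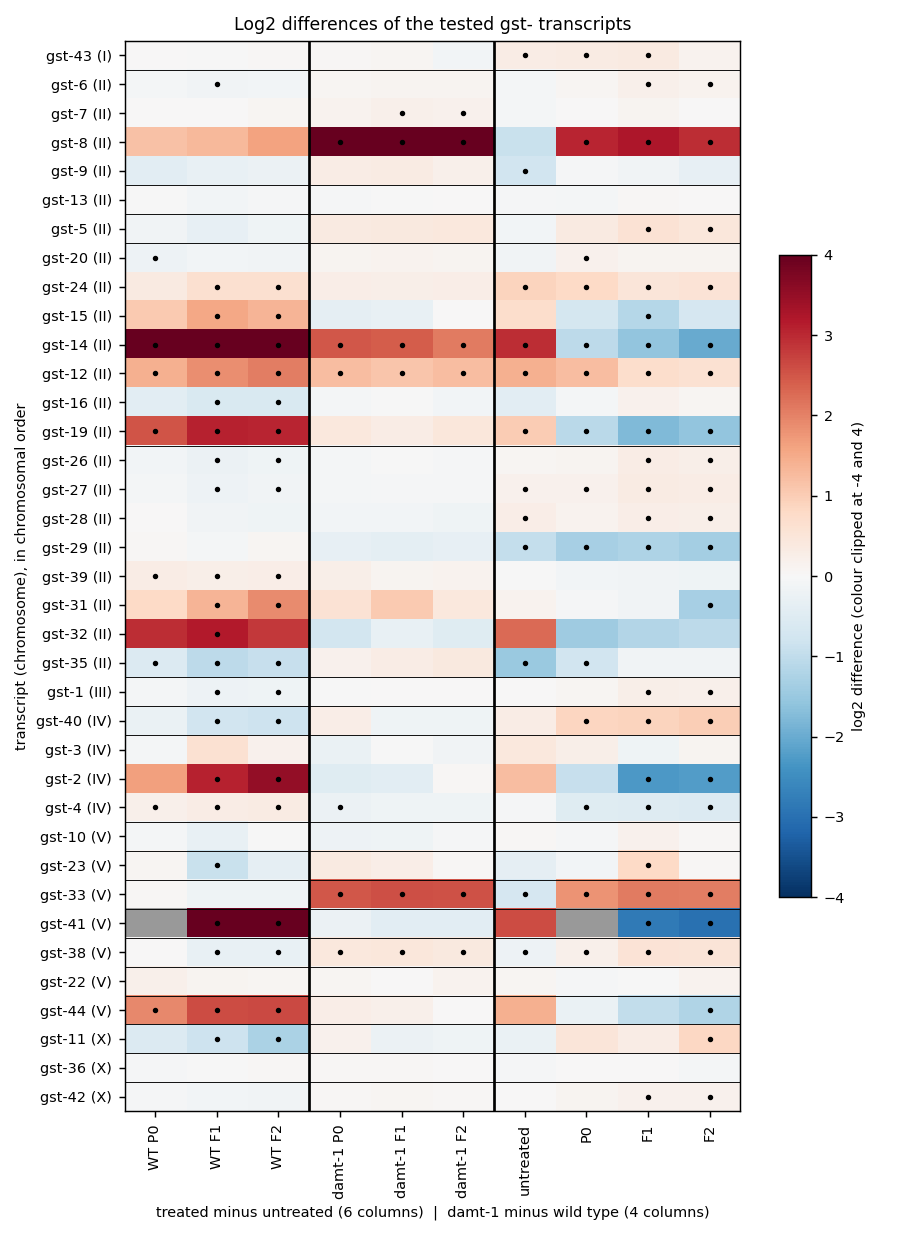
Colour gives the log2 difference of each tested gst- transcript in chromosomal order, with the chromosome in brackets, for 6 comparisons of treated with untreated worms and 4 of damt-1 with wild type; lines separate runs of neighbours, grey marks an untested pair and a dot marks a call. The wild type columns hold up to 22 calls and each treated damt-1 column 6.

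The reporter gene gst-4 moved in opposite directions in the genotypes. In wild type it stood at 139 and 130 CPM untreated, 164 and 148 CPM in P0, 167 and 164 CPM in F1 and 170 and 169 CPM in F2. In damt-1 it stood at 127 and 133 CPM untreated, 108 and 113 CPM in P0, 120 and 110 CPM in F1 and 118 and 113 CPM in F2. All treated wild type libraries lay above both untreated ones, and all treated damt-1 libraries lay below both untreated ones. The rise in wild type was 0.21 ± 0.06 in log2 (SE) in P0, 0.31 ± 0.06 in F1 and 0.34 ± 0.06 in F2 (adjusted p = 0.0089, 9.4e-05 and 2.8e-05). In damt-1 the log2 difference was -0.24 ± 0.06 in P0 (adjusted p = 0.013), while the F1 value of -0.18 and the F2 value of -0.17 missed the threshold (adjusted p = 0.068 and 0.081). The response of damt-1 minus that of wild type was -0.45 ± 0.09 in P0, -0.49 ± 0.09 in F1 and -0.51 ± 0.09 in F2 (adjusted p = 3.7e-05 in F2). The untreated genotypes differed by -0.04 (adjusted p = 0.65). The P0 call in wild type was lost without untreated wild type replicate 2 (0.16, adjusted p = 0.14), without wild type P0 replicate 1 (0.14, adjusted p = 0.19), with DESeq2 (adjusted p = 0.15) and with low-density scaling (adjusted p = 0.074). With low-density scaling the rises were 0.17 in F1 and 0.22 in F2. The P0 fall in damt-1 was lost without untreated damt-1 replicate 2 (-0.20, adjusted p = 0.14), without damt-1 P0 replicate 1 (-0.21, adjusted p = 0.13) and with DESeq2 (adjusted p = 0.12).

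In the array from gst-20 to gst-19 in wild type, 3 of 7 members rose in P0, 5 in F1 and 5 in F2. In each label 1 was lower, and 21.1%, 46.9% and 46.9% of all transcripts were called in these comparisons. In untreated wild type gst-14 was nearly silent, with 1 and 3 counts (0.262 and 0.708 CPM). It reached 49.7 and 43.6 CPM in P0, 64.9 and 66.1 CPM in F1 and 69.5 and 69.5 CPM in F2. The untreated libraries were far below every treated one, and the ratio of counts was 93.6 in P0, 132 in F1 and 140 in F2, with 95% counting intervals of 36.3 to 345, 51.2 to 486 and 54.3 to 515. In log2 the rise was 6.46 ± 0.28 in P0, 6.95 ± 0.26 in F1 and 7.04 ± 0.25 in F2. Untreated damt-1 worms already held more gst-14, 4.05 and 4.06 CPM (15 and 16 counts), 2.95 ± 0.51 above wild type in log2 (adjusted p = 5.6e-05). Treated damt-1 worms held 23 and 22.3 CPM in P0, 20.3 and 23.3 CPM in F1 and 18.4 and 16.2 CPM in F2, between the untreated and treated levels of wild type. The rise in damt-1 was 2.47 ± 0.22, 2.42 ± 0.22 and 2.09 ± 0.23 in log2, and the damt-1 response minus that of wild type was -3.99, -4.54 and -4.95 (adjusted p = 2.1e-06, 1.2e-07 and 2.6e-08). None of the 22 alternative settings ended one of these gst-14 calls.

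The neighbour gst-12 rose in both genotypes. It stood at 7.87 and 6.84 CPM in untreated wild type, 22.5 and 16.8 CPM in P0, 23.8 and 29 CPM in F1 and 29.8 and 30.8 CPM in F2. In damt-1 it stood at 19.4 and 20 CPM untreated, 46.7 and 45.6 CPM in P0, 47.4 and 38.5 CPM in F1 and 46.6 and 45.6 CPM in F2. Untreated damt-1 libraries thus lay within the range of treated wild type P0. The rises were 1.41 ± 0.22, 1.85 ± 0.20 and 2.04 ± 0.20 in wild type and 1.23 ± 0.15, 1.12 ± 0.15 and 1.22 ± 0.15 in damt-1, and the untreated genotypes differed by 1.42 ± 0.22 (adjusted p = 9.3e-06). The damt-1 response was lower by 0.73 in F1 and by 0.82 in F2. The first of these was lost without untreated wild type replicate 2 (-0.63, adjusted p = 0.14), wild type F1 replicate 2 (-0.54, adjusted p = 0.15), untreated damt-1 replicate 1 (-0.75, adjusted p = 0.054) or 2 (-0.70, adjusted p = 0.076) and damt-1 F1 replicate 2 (-0.58, adjusted p = 0.10). The second was lost without untreated wild type replicate 2 (-0.72, adjusted p = 0.082), and DESeq2 gave an adjusted p of 0.093 in F1 and 0.051 in F2.

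In the same array gst-19 rose in wild type alone by the test. It had 1.84 and 8.26 CPM in untreated wild type (7 and 35 counts), 29.5 and 30.4 CPM in P0, 45.1 and 43.3 CPM in F1 and 44.4 and 42.4 CPM in F2. In damt-1 it had 7.82 and 13.2 CPM untreated, 12.7 and 15.9 CPM in P0, 14.8 and 11.3 CPM in F1 and 13.6 and 15.3 CPM in F2. The untreated wild type libraries were unlike each other, yet both lay below every treated wild type library. The wild type rise was 2.52 ± 0.30 in P0, 3.08 ± 0.28 in F1 and 3.05 ± 0.28 in F2, and without untreated wild type replicate 2 the P0 value was 4.01. In damt-1 the differences of 0.43, 0.30 and 0.45 missed the threshold (adjusted p = 0.42, 0.66 and 0.41). The difference between the responses was -2.09, -2.78 and -2.61 (adjusted p = 0.00099, 1.6e-05 and 3.5e-05), and without untreated wild type replicate 2 it was -3.57, -4.27 and -4.10. The untreated difference between genotypes, 1.02, was called, but it was 0.35 without untreated wild type replicate 1 (adjusted p = 0.43), 2.5 without replicate 2 and 0.58 without untreated damt-1 replicate 2 (adjusted p = 0.37).

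Of the other members of this array, gst-24, which in worms conjugates the lipid peroxidation product 4-hydroxynonenal, stood at 21.8 and 27.1 CPM in untreated wild type, 31.3 and 32.1 CPM in P0, 40.1 and 37.1 CPM in F1 and 36.2 and 40.2 CPM in F2. It rose by 0.65 ± 0.13 in F1 and 0.64 ± 0.13 in F2. In untreated damt-1 it stood at 48.3 and 43.6 CPM, above all wild type libraries and 0.90 ± 0.13 above untreated wild type, and the treated damt-1 libraries ran from 49.0 to 58.3 CPM without a call. In wild type gst-15 went from 3.41 and 4.25 CPM to 10.9 and 11.8 CPM in F1 and 8.88 and 11.2 CPM in F2, rises of 1.55 ± 0.37 and 1.37 ± 0.37. Its P0 libraries, 6.21 and 9.59 CPM, also lay above the untreated ones, without a call (adjusted p = 0.06). The damt-1 libraries of gst-15 overlapped between 3.47 and 8.82 CPM. The response of damt-1 was lower by 1.85 in F1 (adjusted p = 0.0081) and by 1.37 in F2, and the F2 value ran from -2.23 without damt-1 F2 replicate 1 to -0.89 without replicate 2 (adjusted p = 0.19), was lost in both fits without an untreated wild type replicate (adjusted p = 0.12 and 0.061) and had an adjusted p of 0.098 with DESeq2. By contrast gst-16 fell in wild type, from 35.7 and 33.3 CPM to 20.3 and 24.5 CPM in F1 and 21.5 and 23.8 CPM in F2. The falls were -0.62 ± 0.17 and -0.60 ± 0.17, or -0.50 without wild type F1 replicate 1 (adjusted p = 0.055) and -0.53 without wild type F2 replicate 1 (adjusted p = 0.054). At the edge of the array gst-20 differed in wild type P0 by -0.20, which was lost without untreated wild type replicate 1 (-0.13, adjusted p = 0.3), without P0 replicate 1 (adjusted p = 0.092) or 2 (adjusted p = 0.11) and with DESeq2 (adjusted p = 0.22).

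**Figure D3:**
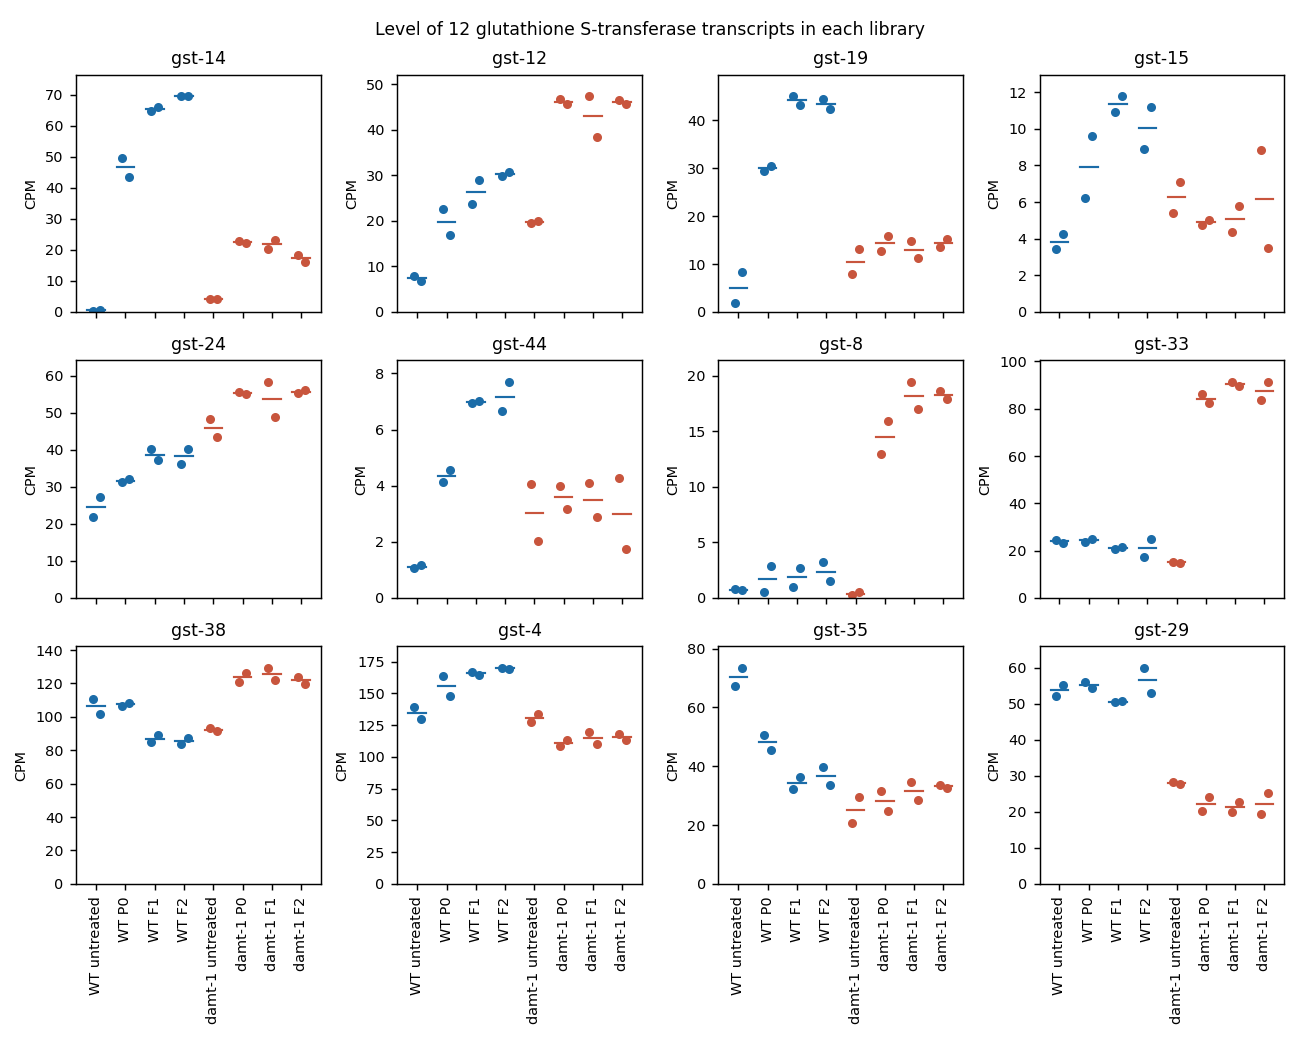
Points are the level of 12 gst- transcripts in each of the 2 libraries of a group in CPM, on linear axes from 0, with a bar at the group mean; wild type is blue and damt-1 is red. The treated wild type libraries of gst-14 run from 43.6 to 69.5 CPM and the treated damt-1 libraries of gst-33 from 82.3 to 91.3 CPM.

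Outside that array and beside gst-4, 6 members rose in wild type in F1, F2 or both, 5 of them at low counts. In untreated wild type gst-44 had 1.05 and 1.18 CPM (4 and 5 counts), against 4.14 and 4.55 CPM in P0, 6.93 and 7.02 CPM in F1 and 6.66 and 7.69 CPM in F2. The ratios were 3.89 in P0 (95% counting interval 1.84 to 9.21), 6.24 in F1 and 6.42 in F2. All treated libraries lay above both untreated ones, and the P0 call was lost without untreated wild type replicate 1 (1.85 in log2, adjusted p = 0.076) or 2 (2.02, adjusted p = 0.063) and without P0 replicate 2 (1.86, adjusted p = 0.065). In damt-1 gst-44 lay between 1.73 and 4.28 CPM in all 8 libraries, and its response was lower than in wild type by 2.40 in F1 and 2.62 in F2. Without untreated damt-1 replicate 1 these were -1.84 (adjusted p = 0.098) and -2.06 (adjusted p = 0.065). For gst-41 the untreated wild type libraries held 0 and 1 counts, the F1 libraries 22 and 20 and the F2 libraries 29 and 16, ratios of 40.0 (95% counting interval 6.8 to 1620) and 44.8 (7.64 to 1810). It is not listed in the table of wild type P0, where the lowest total listed over its 4 libraries is 11 counts, so wild type P0 was not tested. The 8 damt-1 libraries of gst-41 held between 1 and 5 counts, and the damt-1 response was lower by 5.44 in F1 and 5.60 in F2, or -4.71 (adjusted p = 0.071) and -4.87 (adjusted p = 0.063) without untreated damt-1 replicate 2.

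The neighbour of gst-4 on chromosome IV, gst-2, had 2 and 1 counts in untreated wild type, 7 and 22 in F1 and 21 and 16 in F2. Its ratio of counts was 9.21 in F1 (95% counting interval 2.85 to 47.2) and 12.3 in F2 (3.89 to 62.3), and the F1 call was lost without untreated wild type replicate 2 (adjusted p = 0.083) or F1 replicate 2 (adjusted p = 0.19). In the array from gst-26 to gst-35, gst-31 went from 6 and 12 counts to 21 and 28 in F1 and 37 and 31 in F2, rises of 1.36 ± 0.44 and 1.90 ± 0.42. The F1 call of gst-31 was lost without untreated wild type replicate 1 (1.02, adjusted p = 0.13) or F1 replicate 2 (1.18, adjusted p = 0.098). For gst-32, with 2 and 0 counts in untreated wild type and 9 and 12 in F1, the F1 ratio was 10 (95% counting interval 2.44 to 88.0), and the call was lost without untreated wild type replicate 2 (adjusted p = 0.19) or F1 replicate 2 (adjusted p = 0.095). Its fitted log2 value was 3.16, and 6.31 without untreated wild type replicate 1. The array member gst-39 had 72.9 and 78.6 CPM in untreated wild type and between 87.9 and 98.5 CPM in the 6 treated libraries. Its rises of 0.31 in P0, 0.22 in F1 and 0.27 in F2 were lost without untreated wild type replicate 1 (0.26, 0.17 and 0.23, adjusted p = 0.089, 0.2 and 0.08) and with DESeq2 (adjusted p = 0.099, 0.18 and 0.076), and low-density scaling left 0.08 in F1 and 0.15 in F2. Each of these calls was also lost without replicate 2 of its own treated group (adjusted p = 0.15, 0.19 and 0.095), and the F1 call without F1 replicate 1 (adjusted p = 0.086) or F2 replicate 2 (adjusted p = 0.085). The untested gst-34 had 0 and 1 counts in untreated wild type, 8 and 10 in P0, 1 and 9 in F1 and 6 and 7 in F2. It is not listed in the 3 damt-1 tables, and no value is given for it there.

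Among the members that fell in wild type, gst-35 changed most evenly. It stood at 67.1 and 73.4 CPM untreated, 50.7 and 45.5 CPM in P0, 32.2 and 36.5 CPM in F1 and 39.7 and 33.7 CPM in F2. In damt-1 it stood at 20.8 and 29.7 CPM untreated and between 24.9 and 34.5 CPM in the 6 treated libraries. Untreated wild type thus lay above all other libraries. The falls were -0.55 ± 0.12 in P0, -1.03 ± 0.13 in F1 (adjusted p = 6.1e-07) and -0.94 ± 0.13 in F2, and the untreated damt-1 level minus that of wild type was -1.47 ± 0.14 (adjusted p = 7.1e-09). The damt-1 differences of 0.17, 0.31 and 0.39 were not called, and the responses differed by 0.72 in P0, 1.34 in F1 and 1.33 in F2. The P0 value was 0.65 without untreated wild type replicate 2 (adjusted p = 0.053), 0.64 without wild type P0 replicate 2 (adjusted p = 0.056), 0.49 without untreated damt-1 replicate 1 (adjusted p = 0.13), 0.53 without damt-1 P0 replicate 1 (adjusted p = 0.15) and had an adjusted p of 0.074 with DESeq2.

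Other falls in wild type rested on fewer counts or were small. In gst-11 the untreated libraries had 21.2 and 13.9 CPM, the F1 libraries 9.65 and 10.2 CPM and the F2 libraries 4.44 and 10.2 CPM. Its falls were -0.81 ± 0.28 in F1 and -1.26 ± 0.30 in F2, but -0.49 in F1 without untreated replicate 1 (adjusted p = 0.27), and in F2 -0.77 without F2 replicate 1 (adjusted p = 0.055) and -2.0 without F2 replicate 2. The F1 call was also lost without F1 replicate 1 (adjusted p = 0.084) or 2 (adjusted p = 0.058). For gst-40 the untreated libraries had 11.8 and 16 CPM against 5.69 and 10.6 CPM in F1 and 8.38 and 7.20 CPM in F2. The falls of -0.76 and -0.84 were -0.52 (adjusted p = 0.27) and -0.59 (adjusted p = 0.21) without untreated replicate 2. The F1 value was -0.40 without F1 replicate 1 (adjusted p = 0.33) and -1.32 without F1 replicate 2, and the F2 call was lost without F2 replicate 1 (adjusted p = 0.052) or 2 (adjusted p = 0.10). In F1 alone gst-23 was called, with 12.3 and 10.6 CPM untreated and 5.20 and 7.02 CPM in F1 (-0.90 ± 0.29). That call was lost without untreated replicate 1 (-0.79, adjusted p = 0.085) or F1 replicate 1 (-0.71, adjusted p = 0.11).

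Small falls were also called in abundant members. In wild type gst-1, a pi class enzyme, had 243 and 231 CPM untreated, 213 and 202 CPM in F1 and 209 and 213 CPM in F2, falls of -0.19 ± 0.05 and -0.17 ± 0.05. For gst-26 the levels were 180 and 176 CPM untreated, 154 and 151 CPM in F1 and 159 and 155 CPM in F2, falls of -0.22 and -0.18. The groups of both genes did not overlap, and the F2 call of gst-1 was lost without untreated replicate 1 (adjusted p = 0.098) or F2 replicate 1 (adjusted p = 0.076). With DESeq2 the F2 falls of gst-1 and gst-26 had an adjusted p of 0.086 and 0.087. The falls of gst-27 (-0.19 in F1, -0.15 in F2) and gst-6 (-0.15 in F1) were lost without untreated wild type replicate 1 (adjusted p = 0.058, 0.2 and 0.24). They were lost too without wild type F1 replicate 2 for the F1 values (adjusted p = 0.065 and 0.10) and without F2 replicate 1 (adjusted p = 0.11) or 2 (adjusted p = 0.056) for the F2 value. With low-density scaling these falls were larger, -0.33 in F1 and -0.29 in F2 for gst-1, -0.36 and -0.30 for gst-26, -0.33 and -0.27 for gst-27 and -0.30 in F1 for gst-6. DESeq2 ended the calls of gst-27 (adjusted p = 0.057 in F1 and 0.18 in F2) and gst-6 (adjusted p = 0.19).

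In damt-1 worms the largest rises were in gst-8 and gst-33. The former, which like gst-24 conjugates 4-hydroxynonenal in worms, had 1 and 2 counts in untreated damt-1 (0.270 and 0.507 CPM). It had 52 and 60 counts in damt-1 P0 (13 and 15.9 CPM), 71 and 65 in F1 (19.4 and 17.0 CPM) and 74 and 62 in F2 (18.6 and 17.9 CPM). Ratios of counts were 36.8 in P0, 46.4 in F1 and 46.7 in F2, with 95% counting intervals of 12.3 to 181, 15.6 to 228 and 15.6 to 229. In wild type gst-8 had 3 and 3 counts untreated, 2 and 12 in P0, 4 and 12 in F1 and 13 and 6 in F2, without a call. The wild type ratios were 2.34 in P0, 2.54 in F1 and 3.15 in F2. Their 95% counting intervals were 0.844 to 7.42, 0.944 to 7.92 and 1.21 to 9.65. The treated damt-1 libraries lay above every wild type library, by 3.03 ± 0.44 in P0, 3.25 ± 0.42 in F1 and 2.94 ± 0.40 in F2 in log2, and without wild type P0 replicate 2 the P0 difference was 4.72. The damt-1 response exceeded that of wild type by 3.91 in P0, 4.12 in F1 and 3.82 in F2. The P0 value missed the threshold without untreated wild type replicate 1 (3.84, adjusted p = 0.091) or 2 (3.98, adjusted p = 0.078) or untreated damt-1 replicate 1 (3.56, adjusted p = 0.063), and the F2 value without untreated wild type replicate 1 (3.75, adjusted p = 0.061) or 2 (3.89, adjusted p = 0.052).

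The single gene gst-33 on chromosome V had 24.7 and 23.1 CPM in untreated wild type, 23.8 and 24.9 CPM in P0, 20.5 and 21.7 CPM in F1 and 17.3 and 25.1 CPM in F2. In damt-1 it had 15.4 and 14.7 CPM untreated, 86.4 and 82.3 CPM in P0, 91.2 and 89.5 CPM in F1 and 83.6 and 91.3 CPM in F2. Treated damt-1 libraries lay above every other library and untreated damt-1 below every other. The rise in damt-1 was 2.49 ± 0.13, 2.59 ± 0.13 and 2.54 ± 0.13 in log2 (adjusted p = 3.2e-13, 1.3e-13 and 2.3e-13), and in wild type the differences of 0.03, -0.17 and -0.17 were not called. The responses differed by 2.46 ± 0.20 in P0, 2.76 ± 0.21 in F1 and 2.71 ± 0.21 in F2, and the untreated genotypes by -0.67 ± 0.17 (adjusted p = 0.0025). No alternative setting ended these calls.

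A smaller change of opposite sign was seen in gst-38. It had 111 and 101 CPM in untreated wild type, 107 and 108 CPM in P0, 84.7 and 89.0 CPM in F1 and 83.8 and 87.6 CPM in F2. In damt-1 it had 93.1 and 91.2 CPM untreated, 121 and 126 CPM in P0, 129 and 122 CPM in F1 and 124 and 120 CPM in F2. Treated damt-1 libraries lay above all others. It rose in damt-1 by 0.42 ± 0.06, 0.45 ± 0.06 and 0.40 ± 0.06 and fell in wild type F1 and F2 by 0.29 and 0.31, and the responses differed by 0.40, 0.73 and 0.71, the first with an adjusted p of 0.065 with DESeq2. Called at the margin in damt-1 was gst-7, with 188 and 187 CPM untreated, 220 and 210 CPM in F1 and 203 and 224 CPM in F2. Its values of 0.19 in F1 and 0.18 in F2 were lost with DESeq2 (adjusted p = 0.22 and 0.23), with low-density scaling (adjusted p = 0.067 and 0.08), without untreated damt-1 replicate 1 (adjusted p = 0.071 and 0.09) or 2 (adjusted p = 0.095 and 0.12), without F1 replicate 1 (adjusted p = 0.16) and without F2 replicate 2 (0.12, adjusted p = 0.3).

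**Figure D4:**
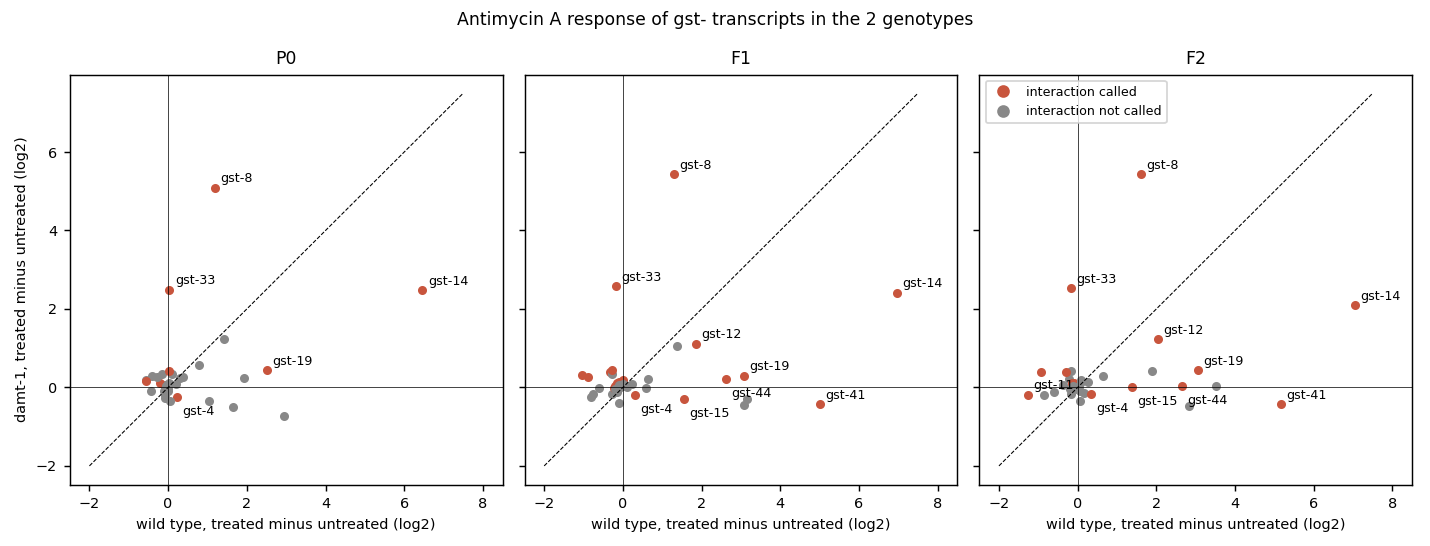
Each point is a tested gst- transcript, with its log2 difference between treated and untreated wild type on the horizontal axis and between treated and untreated damt-1 on the vertical axis, for P0, F1 and F2; both axes share their untreated libraries across panels, the dashed line marks equal responses and red marks a called interaction. In F2 gst-14 sits at 7.04 and 2.09, gst-33 at -0.17 and 2.54.

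Without treatment 12 of 37 members differed between the genotypes (7 higher and 5 lower in damt-1), beside 38.2% of all transcripts. In the treated groups the counts were 14 of 36 in P0 (9 higher, 5 lower), 22 of 37 in F1 (15 higher, 7 lower) and 22 of 37 in F2 (14 higher, 8 lower), beside 35.8%, 51.4% and 49.3% of all transcripts. In these 4 comparisons the median transcript shifted by 0.10, 0.12, 0.245 and 0.22 with low-density scaling, which gave splits of 9 higher and 4 lower untreated, 16 and 5 in P0, 21 and 7 in F1 and 20 and 8 in F2. Throughout, gst-29 was lower in damt-1. Its wild type libraries ran from 50.5 to 59.9 CPM in all 4 groups, its untreated damt-1 libraries had 28.3 and 27.6 CPM, and its treated damt-1 libraries ran from 19.4 to 25.1 CPM. The genotypes did not overlap in any condition, and the log2 differences were -0.94 ± 0.12 untreated, -1.32 ± 0.13 in P0, -1.24 ± 0.13 in F1 and -1.35 ± 0.13 in F2, all kept under each alternative setting. Antimycin A did not give a call for gst-29 in either genotype. In the same array gst-27 was higher in damt-1 by 0.17 untreated, 0.17 in P0, 0.33 in F1 and 0.28 in F2. Its untreated and P0 calls were each lost in 3 settings, with DESeq2 among them (adjusted p = 0.087 and 0.14), and its F1 and F2 calls in none. In F1 and F2 gst-26 was higher in damt-1 by 0.28 and 0.22, and gst-1 by 0.23 and 0.2. These sizes depend on the scaling. With low-density scaling the F1 and F2 values were 0.57 and 0.51 for gst-27, 0.53 and 0.45 for gst-26 and 0.47 and 0.42 for gst-1. The F2 value of gst-1 was 0.13 without damt-1 F2 replicate 2.

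At low counts gst-41 was lower in damt-1 than in wild type by 2.84 in F1 (-2.84 ± 0.70, adjusted p = 0.0017) and by 3.0 in F2 (-3.0 ± 0.69, adjusted p = 0.001), and its libraries did not overlap between the genotypes there. For gst-2 the damt-1 libraries held 4 and 1 counts in F1 and 2 and 5 in F2, all below the wild type counts given above, and the differences were -2.29 ± 0.85 and -2.23 ± 0.77. The F1 call of gst-2 was lost without wild type F1 replicate 2 (-1.29, adjusted p = 0.37), without damt-1 F1 replicate 2 (-1.60, adjusted p = 0.21) and with DESeq2 (adjusted p = 0.072), and the value was -3.55 without damt-1 F1 replicate 1. Its F2 call was lost without wild type F2 replicate 1 (-2.04, adjusted p = 0.097), without damt-1 F2 replicate 1 (-1.65, adjusted p = 0.17) and with DESeq2 (adjusted p = 0.063).

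In the array of gst-29, gst-28 had 85.2 and 88.2 CPM in untreated wild type and 109 and 98.1 CPM in untreated damt-1, a difference of 0.25 that was 0.17 without untreated damt-1 replicate 1 (adjusted p = 0.15) and had an adjusted p of 0.082 with DESeq2. For gst-43 the untreated libraries had 54.6 and 50 CPM in wild type and 64.5 and 63.4 CPM in damt-1, and the differences were 0.29 untreated, 0.33 in P0 and 0.37 in F1. The untreated call was lost without untreated wild type replicate 2 (0.23, adjusted p = 0.14) or untreated damt-1 replicate 1 (adjusted p = 0.063), and the P0 call without wild type P0 replicate 1 (0.26, adjusted p = 0.068) or damt-1 P0 replicate 2 (0.26, adjusted p = 0.075). DESeq2 also ended the untreated and P0 calls of gst-43 (adjusted p = 0.11 and 0.084), and low-density scaling gave 0.62 in F1. In untreated worms gst-9 had 14.9 and 18.6 CPM in wild type and 11.9 and 8.11 CPM in damt-1 (adjusted p = 0.075 with DESeq2). Its difference of -0.76 was -0.59 without untreated wild type replicate 2 (adjusted p = 0.18) and -0.51 without untreated damt-1 replicate 2 (adjusted p = 0.22). In treated worms gst-40 was higher in damt-1 by 0.86 in P0, 0.90 in F1 and 0.97 in F2, with damt-1 libraries from 14.4 to 22.3 CPM and treated wild type libraries from 5.69 to 14.9 CPM. Without wild type P0 replicate 1 the P0 value was 0.49 (adjusted p = 0.21), without replicate 2 it was 1.38 and without damt-1 P0 replicate 2 it was 0.77 (adjusted p = 0.076). The F1 value was 0.53 without wild type F1 replicate 1 (adjusted p = 0.17), 1.47 without replicate 2 and 0.80 without damt-1 F1 replicate 1 (adjusted p = 0.075), and the F2 value was 0.88 without damt-1 F2 replicate 1 (adjusted p = 0.054).

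The difference between the genotypes in their response was called for 8 of 36 members in P0 (5 higher and 3 lower in damt-1), 18 of 37 in F1 (11 higher, 7 lower) and 15 of 37 in F2 (8 higher, 7 lower), beside 22% of all transcripts in P0, 40.4% in F1 and 40.1% in F2. With low-density scaling the median transcript shifted by 0.15 in F1 and 0.125 in F2, and the split was 16 higher and 6 lower in F1 and 12 higher and 6 lower in F2. In all 3 treated labels the call held for gst-4, gst-8, gst-14, gst-19, gst-20, gst-33, gst-35 and gst-38, although for gst-20 the sizes of 0.32, 0.24 and 0.26 were lost with DESeq2 (adjusted p = 0.15, 0.24 and 0.21), without untreated wild type replicate 1 (adjusted p = 0.073, 0.19 and 0.16) and without untreated damt-1 replicate 2 (adjusted p = 0.089, 0.21 and 0.18).

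Between the treated labels, wild type F1 differed from P0 in 5 of 36 members (2 higher, 3 lower; 22.4% of all transcripts were called) and F2 differed from P0 in 5 of 36 (3 higher, 2 lower; 22.5% of all transcripts). With low-density scaling the splits were 1 higher and 8 lower in F1, where the median transcript shifted by -0.10, and 2 higher and 3 lower in F2. Of the members already described, gst-14 was higher than in P0 by 0.49 ± 0.11 in F1 and 0.58 ± 0.11 in F2, and gst-38 was lower by 0.31 and 0.33 (-0.31 ± 0.06 and -0.33 ± 0.06). The P0 libraries of both lay outside the range of the F1 and F2 libraries, and the F1 call of gst-14 was lost with DESeq2 (adjusted p = 0.059). The F2 call of gst-12 (0.63) was lost without P0 replicate 2 (0.43, adjusted p = 0.12). The remaining calls, of gst-19, gst-23 and gst-35 in F1 and of gst-31 and gst-35 in F2, were lost when either a P0 or a later library was left out, at values such as 0.53 for gst-19 (adjusted p = 0.18) without P0 replicate 1, -0.78 for gst-23 (adjusted p = 0.15) without P0 replicate 2, and 0.94 for gst-31 (adjusted p = 0.22) without P0 replicate 2. For gst-35 the values without P0 replicate 1 were -0.41 and -0.31 (adjusted p = 0.13 and 0.27). In damt-1, 0 members were called by edgeR in F1 or F2 against P0, beside 0% of all transcripts in both. At an unadjusted p under 0.05 there were 0 and 1 members, beside 555 of 12408 and 573 of 12412 tested transcripts, and DESeq2 called 0 and 0 members. Member differences there ran from -0.45 to 0.48 in F1 and from -0.45 to 0.53 in F2.

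Several members were called in none of the 17 comparisons. The abundant gst-13 lay between 212 and 245 CPM in all 16 libraries and gst-36 between 152 and 170 CPM. Also without a call were gst-22 (64.3 to 77.4 CPM), gst-10 (11.6 to 16 CPM), which conjugates 4-hydroxynonenal in worms, and gst-3 (4.51 to 10.2 CPM). In gst-42, the zeta class enzyme of tyrosine breakdown, the libraries ran from 173 to 204 CPM, and it was higher in damt-1 than in wild type by 0.17 in F1 and in F2, which was lost with DESeq2 (adjusted p = 0.096 and 0.10), without damt-1 F1 replicate 1 (adjusted p = 0.058) and without damt-1 F2 replicate 2 (0.13, adjusted p = 0.11). With low-density scaling the gst-42 differences were 0.42 in F1 and 0.40 in F2. For gst-5, another enzyme known for 4-hydroxynonenal, the 6 treated damt-1 libraries (17.3 to 22.4 CPM) lay above all other libraries (12.9 to 16.5 CPM). Its damt-1 differences from untreated of 0.35, 0.39 and 0.41 were not called (adjusted p = 0.27, 0.21 and 0.17). Against treated wild type gst-5 was higher in damt-1 by 0.58 in F1 and 0.46 in F2, and its response differed by 0.70 in F1. The F1 difference was 0.38 without damt-1 F1 replicate 1 (adjusted p = 0.2), 0.58 without wild type F1 replicate 2 (adjusted p = 0.056) and had an adjusted p of 0.075 with DESeq2. The F2 call was lost in 16 of the 22 alternative settings, with 0.39 without wild type F2 replicate 1 (adjusted p = 0.2) and 0.37 without damt-1 F2 replicate 2 (adjusted p = 0.21). The response difference in F1 was lost in 9, with 0.51 without damt-1 F1 replicate 1 (adjusted p = 0.2).

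The genes that supply and use glutathione beside the family moved unevenly. A list named for glutathione synthesis and recycling had 3 tested genes. Of these gcs-1, the rate-limiting step of synthesis, rose by 0.15 in wild type F1 and 0.155 in F2 (adjusted p = 0.0034 and 0.0027), against 0.02 in P0 (adjusted p = 0.82). With low-density scaling the median of all transcripts moved by -0.14 in wild type F1 and -0.12 in F2, close to the size of this rise. Values of gcs-1 and of the genes named below are not given under that scaling or another alternative setting. The list also held the mitochondrial thioredoxin reductase gene trxr-2, which is not a gene of glutathione synthesis and whose enzyme acts on thioredoxin. In wild type trxr-2 rose by 0.34, 0.62 and 0.75, while 0 of the 3 were called in treated damt-1. Among 4 tested glutathione peroxidase genes, gpx-1 fell in wild type by 0.22, 0.50 and 0.41 and rose in damt-1 by 0.27, 0.28 and 0.36. At low levels gpx-3 went from a mean of 0.118 CPM in untreated wild type to 11.5 CPM in F1 and in F2, with 5.05 CPM in untreated damt-1. The same untreated mean belonged to gst-41 with 1 count in that group, so the size of the gpx-3 rise is uncertain. Of 5 tested glutaredoxin and peroxiredoxin genes, 0 were called in treated damt-1 and 1 rose and 1 fell in wild type F1 and F2. The rise was of glrx-5, by 0.30 and 0.31. Beside the counts of these lists, 21.1%, 46.9% and 46.9% of all transcripts were called in wild type P0, F1 and F2. In damt-1 the shares were 14.1%, 13.2% and 13.7%.

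Of 5 omega and kappa class transferases named otherwise, gsto-2 rose in damt-1 by 1.28 in P0, 1.67 in F1 and 1.26 in F2, and gstk-1 fell in wild type by 0.20, 0.41 and 0.42. Its companion gstk-2 fell there by 0.62, 0.97 and 0.71. The 8 mrp genes, whose pumps export glutathione conjugates, had 10 tested transcripts. Of these 4 rose in wild type P0, 3 rose and 1 fell in F1 and 3 rose in F2, while 2 rose and 1 fell in each treated damt-1 group. Of all transcripts 21.1%, 46.9% and 46.9% were called in wild type P0, F1 and F2, and 14.1%, 13.2% and 13.7% in damt-1. In wild type mrp-7 rose by 0.16, 0.22 and 0.15 and mrp-5 by 0.15, 0.11 and 0.11, and mrp-3 rose by 0.14 in P0 and fell by 0.13 in F1. The scaling bears on such small values. Low-density scaling moved the median of all transcripts by -0.14 in wild type F1 and -0.12 in F2, and values of these genes under it are not given. The damt-1 rises were of mrp-2 (0.84, 0.71 and 0.79) and mrp-3 (0.57, 0.56 and 0.54), and the fall of mrp-4 (-0.27, -0.30 and -0.30), which in wild type rose by 0.49, 0.82 and 0.89. Of the 8 tested transcripts of skn-1 and its regulators, 0 rose in treated wild type. In P0 1 fell, and 3 fell in each of F1 and F2, beside 21.1%, 46.9% and 46.9% of all transcripts called. The falls were of pmk-1, the p38 kinase that acts on SKN-1 (-0.34, -0.28 and -0.31), and in F1 and F2 also its upstream kinase gene sek-1 (-0.26 and -0.22) and a transcript of skn-1 (-0.83 and -0.92). No other of the 8 transcripts, which came from 7 genes, was called there, and the skn-1 value holds for that transcript only. In treated damt-1 the call in that list was 1 rise, of sek-1 in P0 (0.17). Members of these lists that did not pass the filter were not analysed here.

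In the marker lists 5, 6 and 6 of 7 tested germ line genes rose in wild type P0, F1 and F2 and 3 fell in each treated damt-1 group, with median log2 differences of 0.60, 0.93 and 0.96 in wild type and -0.33, -0.26 and -0.37 in damt-1. All 6 furrow collagens rose in wild type F1 and F2 and 5 in P0, 4, 3 and 4 fell in treated damt-1, and all 6 were higher in untreated damt-1 than in untreated wild type. Of 9 tested intestinal genes 2 rose and 1, 4 and 2 fell in wild type P0, F1 and F2, and 0, 1 and 0 rose in damt-1, with 0 lower. The median of all transcripts lay between -0.01 and 0.03 in the same comparisons, and the part of these markers in the gst- differences was not tested. Of all transcripts 21.1%, 46.9% and 46.9% were called in wild type P0, F1 and F2, and 14.1%, 13.2% and 13.7% in damt-1. Between the untreated genotypes the share was 38.2%.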

How the data were processed

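Each treated group has a deposited table of raw counts per transcript, with 2 untreated and 2 treated libraries; the authors did not normalise these counts, to judge from whole numbers with unequal totals. The build was ce10, and the tools named are DESeq2 1.20.0, R 3.5.0, HTSeq 0.9.1, SAMtools 1.3.1, HISAT2 2.0.5 and Trimmomatic 0.35, per the submitters' processing notes; strand and the handling of duplicate reads are not given in the sources used here. Tables of a genotype repeat its untreated counts with 0 differences. The 24 per-sample columns of the deposited comparison tables were not used. Of 14396 transcripts 12654 are in all 6 tables, and the 38 members were matched by symbol to the reference annotation of another build, used for names, gene order and spliced length only (44 gst- genes).

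Counts were fitted in R 4.3.3 with edgeR 4.0.16: filterByExpr with a minimum count of 10, TMM factors (0.978 to 1.02), a robust quasi-likelihood fit of all 16 libraries with a mean for each group, and Benjamini-Hochberg adjustment over all transcripts of a comparison, at 0.05. What edgeR names the biological coefficient of variation was 2.18%, and replicate libraries differed by a chi-square of 1.19 to 1.72 per transcript. Both measure the spread between replicate libraries, which may be technical, and variation between cultures is not known from them. Every adjusted p is from this test unless DESeq2 1.42.0 is named. Unlisted cells entered as 0 and their comparisons were left untested. Counting intervals are exact at 95% and cover counting error only. Replicate numbers did not pair libraries (r from -0.058 to 0.036 over 28 pairs of groups). The members, the lists and the rule for named genes (gst-4, and per comparison up to 4 calls each way with 10 CPM or more and no overlap of libraries) were chosen with earlier results of these data known; other members are named because every member is accounted for, after their values were seen. Figures were drawn with matplotlib 3.10.9.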

Additional observations from a re-analysis of the deposited data

Results flagged for a closer look

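The following differences between the genotypes in their response to antimycin A (damt-1 treated minus untreated, less the same in wild type, in log2) passed edgeR's test of that difference. Larger in wild type were gst-14 (-3.99 in P0, -4.54 in F1 and -4.95 in F2), gst-19 (-2.09, -2.78 and -2.61) and gst-4 (-0.45, -0.49 and -0.51). In F1 and F2 they were joined by gst-41 (-5.44 and -5.60), gst-44 (-2.40 and -2.62), gst-15 (-1.85 and -1.37) and gst-12 (-0.73 and -0.82).

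Larger in damt-1, or lower in wild type, were gst-8 (3.91 in P0, 4.12 in F1 and 3.82 in F2), gst-33 (2.46, 2.76 and 2.71), gst-35 (0.72, 1.34 and 1.33), gst-38 (0.40, 0.73 and 0.71) and gst-20 (0.32, 0.24 and 0.26). In F1 and F2 gst-6 (0.27 and 0.21) and gst-1 (0.22 and 0.19) passed the test. Of 22 alternative settings, 2 and 8 ended these calls for gst-6 and 4 and 6 for gst-1, DESeq2 each time. Without damt-1 F2 replicate 2 the F2 values were 0.17 for gst-6 (adjusted p = 0.15) and 0.12 for gst-1 (adjusted p = 0.21).

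For 5 members 1 label alone passed the test, and none of these calls held under DESeq2. In F1 they were gst-23 (1.16, lost in 6 settings and 0.97 without wild type F1 replicate 1, adjusted p = 0.093), gst-5 (0.70, lost in 9), gst-26 (0.20, lost in 4 and 0.16 without damt-1 F1 replicate 1, adjusted p = 0.14) and gst-7 (0.19, lost in 13 and 0.13 without untreated wild type replicate 1, adjusted p = 0.23). In F2 it was gst-11 (1.07, lost in 6), with 0.59 without wild type F2 replicate 1 (adjusted p = 0.28) and 1.82 without replicate 2. These rest on the 2 untreated libraries of each genotype, which serve all 3 treated groups.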

How the results depend on the processing

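Of 188 called values of single members 104 stayed called in all 22 alternative settings and 0 changed sign. With DESeq2's Wald test the counts of called members were 5 in wild type P0, 7 between untreated genotypes, 5, 10 and 9 for the response difference in P0, F1 and F2, and 1 and 3 for wild type F1 and F2 against P0. Low-density scaling gave 9 for wild type F1 against P0. Leaving out each library gave 5 to 9, 15 to 24 and 14 to 22 calls in wild type P0, F1 and F2, 6 to 6, 5 to 6 and 5 to 6 in damt-1, 9 to 14, 10 to 14, 15 to 23 and 16 to 22 between genotypes (untreated, P0, F1, F2), 6 to 9, 12 to 20 and 9 to 15 for the response difference, and 3 to 5 and 2 to 6 for wild type F1 and F2 against P0 (0 throughout in damt-1); a lone remaining library was assumed to vary like the other groups. The replicate block gave 8, 22 and 20 calls in wild type, 6 in each damt-1 group and 4 in wild type F1 and F2 against P0; numbers did not pair libraries. RLE factors, no count filter and fits of only the groups compared kept every count within 1.5 times. The cause of the moved counts was not tested. No share of all transcripts called stands beside the counts of this section, so they show only how member counts depend on the setting. Depth limits the members with few counts, whose ratios carry the wide counting intervals given with them.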
